A study of Mus musculus with 2 samples.

Results

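The genes described here are 9 receptors of natural killer (NK) cells, Ncr1, Klrk1, Klrc1, Klrc2, Klrd1, Klre1, Klrb1c, Klri2 and Klrg1, out of the 27998 genes in the count files. They were chosen by symbol, and all 9 were found. Their UMIs (unique molecular identifiers, 1 per captured transcript) were read in 3 gates of cells. NK cells had 1 or more UMIs of Ncr1 and none of Cd3e. CD8 T cells had 1 or more UMIs of Cd3e and of Cd8a or Cd8b1, and other T cells had Cd3e without Cd8a and Cd8b1. Ncr1 therefore defined the NK gate, and its level there is given as a description only.

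CD45+ cells, the leukocytes, had been purified with magnetic beads from subcutaneous tumours of TSA, a mammary adenocarcinoma cell line, in Balb/c mice. Untreated mice were compared with mice that received 0.5% nicotinamide (NAM, a form of vitamin B3) in drinking water for 10 days. Each group was 1 library made from the pooled tumours of 3 mice, so treatment and library cannot be told apart and no test between groups was possible. Depth was alike, with 29161823 UMIs over 2922 untreated cells (median 9056 a cell) and 32090120 UMIs over 3276 NAM cells (median 9128). The libraries shared 11 cell barcodes among 6198 cells. Levels are UMIs per 1000000 UMIs of the gate (CPM), every interval is an exact 95% interval, and these intervals cover counting error only.

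NK cells weigh signals from activating and inhibitory receptors before they kill a target, and activated CD8 T cells take up several of the same receptors. Most of these genes encode C-type lectin-like proteins of the NK gene complex. CD94, the product of Klrd1, pairs with NKG2A (Klrc1, inhibitory) or NKG2C (Klrc2, activating) and binds Qa-1, while NKG2D (Klrk1) binds stress-induced ligands and signals through DAP10 or DAP12. The NK gene complex differs between mouse strains, and these Balb/c reads had been aligned to the C57BL/6J genome, whose part in the counts was not tested.

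Of the members, 8 lay on chromosome 6 and Ncr1 on chromosome 7 (GRCm38, GENCODE vM21). Klre1, Klrd1, Klrk1, Klrc2, Klrc1 and Klri2 stood within 163 kb (chr6:129577905-129740484). Klrb1c (chr6:128778485-128789215) and Klrg1 (chr6:122270596-122282882) lay outside that stretch, and Ncr1 spanned chr7:4337724-4345164. RefSeq promoter windows (GRCm38.p6, 250 bases before to 50 after a start) were found for 6 of the 9 genes, and none were found for Klrd1, Klri2 and Klrg1. The 250 bases before the start are shown for 4 genes that stand for the patterns described here, namely Ncr1 and Klrb1c (NK cells with few or no CD8 T cells), Klrc1 (NK and CD8 T cells) and Klrk1 (the same cells plus macrophages). They are chr7:4337474-4337723 on the plus strand for Ncr1, and on the minus strand chr6:128788642-128788891 for Klrb1c, chr6:129678974-129679223 for Klrc1 and chr6:129623865-129624114 for Klrk1. Capitals mark TGTGGT, the core bound by RUNX transcription factors, or its reverse complement ACCACA.
Ncr1: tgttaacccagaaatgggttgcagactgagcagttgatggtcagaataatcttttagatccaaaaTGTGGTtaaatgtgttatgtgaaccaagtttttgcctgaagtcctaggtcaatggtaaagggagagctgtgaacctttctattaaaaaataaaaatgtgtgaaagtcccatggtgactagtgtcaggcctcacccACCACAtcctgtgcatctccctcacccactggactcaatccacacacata
Klrb1c: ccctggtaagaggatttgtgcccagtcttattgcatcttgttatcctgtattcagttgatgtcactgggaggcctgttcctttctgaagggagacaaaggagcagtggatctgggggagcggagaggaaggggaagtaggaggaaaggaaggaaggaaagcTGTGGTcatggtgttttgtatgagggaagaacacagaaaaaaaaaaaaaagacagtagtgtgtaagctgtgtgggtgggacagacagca
Klrc1: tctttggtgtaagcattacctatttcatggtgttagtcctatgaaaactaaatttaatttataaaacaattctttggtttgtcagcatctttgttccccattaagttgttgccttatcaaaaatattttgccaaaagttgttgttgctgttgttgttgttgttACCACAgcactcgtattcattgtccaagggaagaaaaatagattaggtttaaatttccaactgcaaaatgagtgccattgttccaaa
Klrk1: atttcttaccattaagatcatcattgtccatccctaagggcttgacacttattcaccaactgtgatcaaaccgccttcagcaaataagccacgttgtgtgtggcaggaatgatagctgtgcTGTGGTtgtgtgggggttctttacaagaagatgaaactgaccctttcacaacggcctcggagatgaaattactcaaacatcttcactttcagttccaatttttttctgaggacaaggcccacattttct
The motif was searched on both strands, as the only one, after the windows had been seen. It was present in 8 of the 9 windows of these 6 genes and in 16.8% of all 32851 promoter windows of 300 bases. In the windows shown, it began 185 and 50 bases before the start of Ncr1, 89 before that of Klrb1c, 87 before that of Klrc1 and 129 before that of Klrk1. A match is a description of the letters and not a binding site.

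The NK gate held 92 untreated and 52 NAM cells, 3.15% (2.55 to 3.85) and 1.59% (1.19 to 2.08) of their libraries, a log2 ratio of -0.99 (-1.51 to -0.48). CD8 T cells numbered 106 and 170, 3.63% (2.98 to 4.37) and 5.19% (4.45 to 6.01), a log2 ratio of 0.52 (0.16 to 0.88). Other T cells numbered 136 and 174, 4.65% (3.92 to 5.48) and 5.31% (4.57 to 6.14), a log2 ratio of 0.19 (-0.14 to 0.52). Median UMIs a cell were 5722 and 4721 in NK cells, 4784 and 4655 in CD8 T cells, and 5434 and 6617 in other T cells. In both libraries 14 of 18 NK cell markers had a UMI in at least 10% of NK-gate cells, while Itga2 (CD49b) and Ncam1 (CD56) were at 0. These 14 include Ncr1, present in every cell by the gate's construction, and the members Klrb1c, Klrd1 and Klre1. Cd4, Cd40lg, Foxp3 and all 5 markers of type 3 innate lymphoid cells were also at 0 in the NK gate, while 5 of 9 T cell markers (Cd3g, Cd247, Cd2, Lck and Thy1, summed with the others to 894 and 978 CPM) and 3 of 4 monocyte markers reached 10% of its cells in both libraries. In the same gate 2 (untreated) and 1 (NAM) of 7 markers of type 1 innate lymphoid cells reached 10% of its cells. Markers of gamma delta T cells had no matching symbol in the files.

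Summed macrophage RNA was higher in the NAM library within the NK gate, while the median cell was not. All 10 macrophage markers had a UMI in 10% or more of NK-gate cells in both libraries, and their summed level was 10100 CPM (untreated) and 17732 CPM (NAM), with no marker at 0. The median share of a cell's UMIs was 0.169% (untreated) and 0.150% (NAM). Cells in which 7 myeloid genes (Csf1r, Adgre1, C1qa, C1qb, C1qc, Lyz2 and Cd68) made up 0.5% or more of UMIs numbered 13 (14.1%) and 12 (23.1%) in the NK gate, 8 (7.55%) and 17 (10.0%) in the CD8 T gate and 41 (30.1%) and 60 (34.5%) in the other T gate. They carried 20.9% and 37.6% of the UMIs of the NK gate. Among such NK-gate cells, 7 of 13 and 10 of 12 had no UMI of any member other than Ncr1 after each cell was thinned to 3000 UMIs. Among the remaining NK-gate cells this was so in 3 of 79 and 0 of 40 (exact intervals 0.79 to 10.7% and 0 to 8.81%). No doublets were removed. Results are therefore also given for cells with myeloid RNA under 0.5%, called low-myeloid cells.

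The members fell into 3 patterns by cell type, in both libraries. Klrk1, Klrc1, Klrc2 and Klrd1 were as high or higher in CD8 T cells as in NK cells. Klre1, Klri2 and Klrb1c were higher in NK cells, and Klrg1 was highest in other T cells. A macrophage gate (2266 and 2467 cells with 2 or more UMIs of Csf1r and Adgre1 together and none of Ncr1, Cd3e, Cd8a or Cd8b1) gave the background, at median depths of 9803 and 9871 UMIs.

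**Figure D1:**
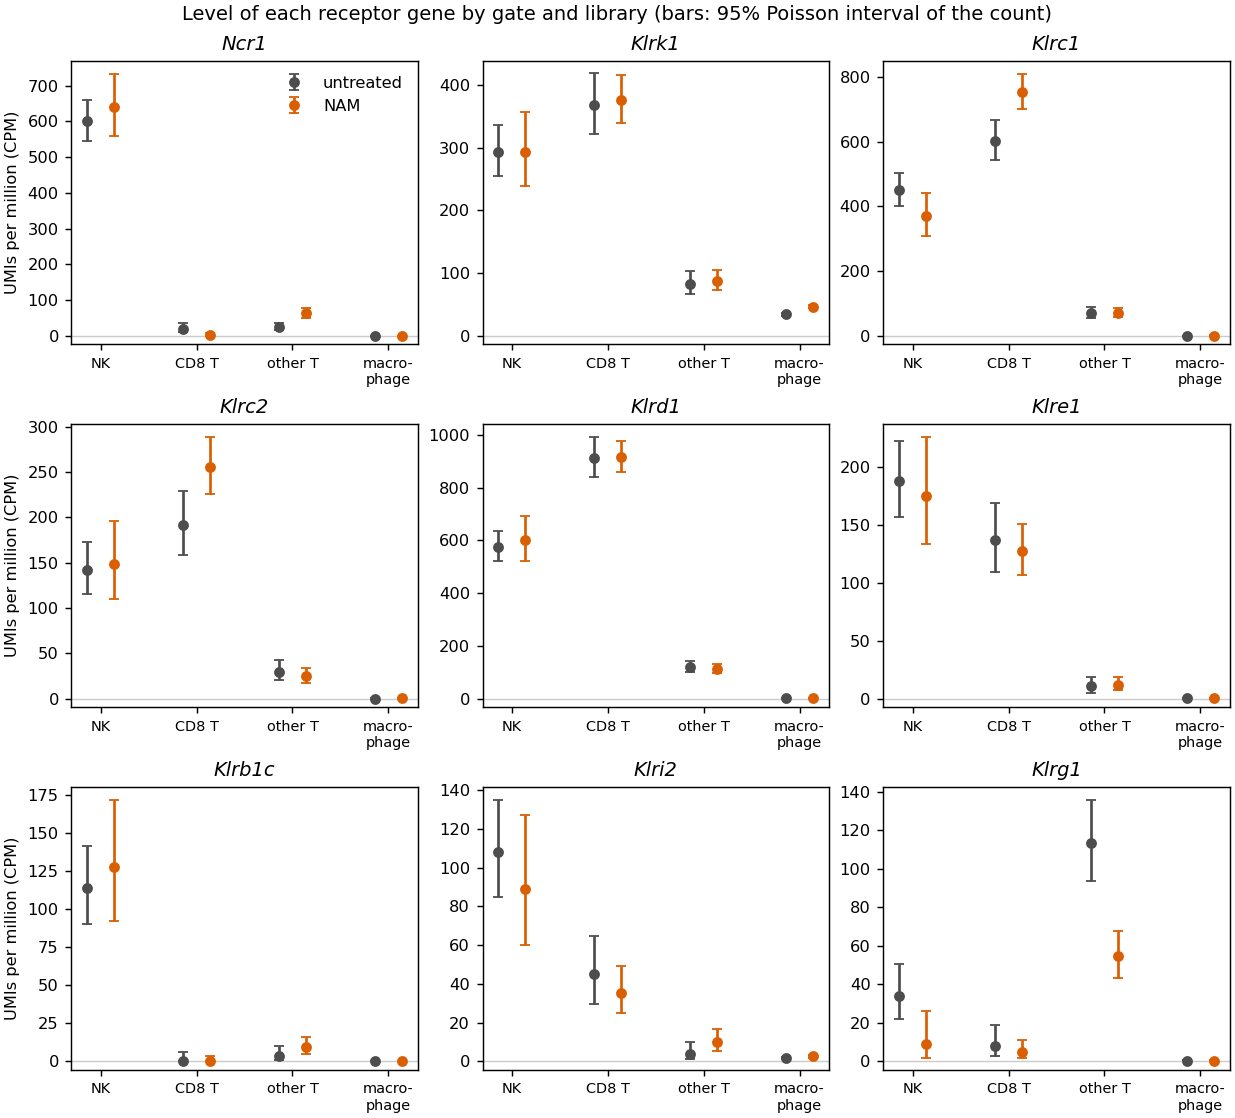
Level (CPM) of each of the 9 receptor genes in NK, CD8 T, other T and macrophage-gate cells, untreated (grey) and NAM (orange), 1 library each. Bars are exact 95% Poisson intervals, and each panel has its own scale. Klrd1 reads 914 and 915 CPM in CD8 T cells, above 576 and 602 in NK cells, while Klrb1c has 0 UMIs in CD8 T cells and Klrg1 is highest in other T cells.

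Klrd1, the CD94 chain that the NKG2 proteins need to reach the surface, was at 576 CPM (521 to 635) in untreated and 602 CPM (522 to 691) in NAM NK cells. CD8 T cells had 914 CPM (840 to 992) and 915 CPM (858 to 975), and other T cells 120 and 115 CPM (218 and 220 CPM among low-myeloid cells). The low-myeloid CD8 T cells were 4.66-fold and 5.08-fold above the low-myeloid other T cells, against 7.61-fold and 7.99-fold in the full gates. CD8 T cells were 1.59-fold higher than NK cells in the untreated library (log2 0.67, 0.48 to 0.85) and 1.52-fold higher in the NAM library (0.60, 0.38 to 0.83). Among low-myeloid cells this difference was 0.54 (0.35 to 0.73) and 0.24 (0.02 to 0.47). After thinning to 3000 UMIs, Klrd1 was found in 76.1% and 65.4% of NK cells, 74.5% and 78.8% of CD8 T cells, and 0.706% and 1.09% of macrophage-gate cells. Klrd1 thus stood at like shares of cells in both gates, and the difference in CPM was the clearer.

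Klrc1 (NKG2A, the inhibitory partner of CD94) was at 449 CPM (401 to 502) and 371 CPM (308 to 442) in NK cells, and at 602 CPM (543 to 666) and 753 CPM (701 to 808) in CD8 T cells. CD8 T cells exceeded NK cells by 0.42 (0.20 to 0.64) on the log2 scale in the untreated library and by 1.02 (0.75 to 1.31) in the NAM library. The same difference in low-myeloid cells was 0.30 (0.08 to 0.53) and 0.65 (0.37 to 0.93). Its thinned share of CD8 T cells was 70.8% and 77.1%, against 0.309% and 0.284% of macrophage-gate cells. Other T cells had 72.6 and 70.8 CPM, and 118 and 136 CPM among low-myeloid cells. CD8 T cells held 46.2% of all Klrc1 UMIs of the untreated library and 72.4% of those of the NAM library.

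Klrc2 (NKG2C, the activating partner of CD94) was at 142 CPM (116 to 173) and 148 CPM (110 to 195) in NK cells and at 191 CPM (158 to 229) and 256 CPM (226 to 289) in CD8 T cells. CD8 T cells were higher than NK cells by 0.43 (0.03 to 0.83) and 0.79 (0.35 to 1.25), and by 0.31 (-0.09 to 0.72) and 0.40 (-0.04 to 0.87) among low-myeloid cells, where both intervals held 0. Other T cells had 30.0 and 24.9 CPM and the macrophage gate 0.248 and 0.457 CPM. Klrc1 and Klrc2 are close paralogues. Of the 98-base words in the last 500 bases of their GENCODE vM21 transcripts, 18.1% of those of Klrc1 and 5.96% of those of Klrc2 occurred exactly in another gene, which makes their split uncertain. The share for Klrb1c was 10.7%, mostly with the gene model Gm44511, and the other 6 members shared no such word.

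Klrk1 (NKG2D, an activating receptor for stress ligands) was at 293 CPM (254 to 336) and 294 CPM (239 to 357) in NK cells and at 368 CPM (322 to 419) and 376 CPM (340 to 415) in CD8 T cells. The log2 difference, CD8 T over NK, was 0.33 (0.05 to 0.61) and 0.36 (0.04 to 0.69). It was 0.25 (-0.03 to 0.54) and -0.05 (-0.38 to 0.29) in low-myeloid cells, so the order of these gates was not resolved for Klrk1. Other T cells had 83.3 and 88.3 CPM, and 113 and 120 CPM among low-myeloid cells.

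Klre1 and Klri2 encode a receptor pair, in which KLRE1 is joined by KLRI1 or KLRI2. Klre1 was at 188 and 175 CPM in NK cells and at 137 and 127 CPM in CD8 T cells. Its CD8 T over NK difference was -0.46 in both libraries, with an interval of -0.87 to -0.05 in the untreated and of -0.92 to 0.01 in the NAM library. Among low-myeloid cells the difference was -0.69 (-1.12 to -0.27) and -0.79 (-1.25 to -0.32). Other T cells had 10.7 and 12.1 CPM of Klre1 and the macrophage gate 0.413 and 0.381 CPM. Klri2 was at 108 and 88.9 CPM in NK cells and 45.0 and 35.6 CPM in CD8 T cells, a difference of -1.26 (-1.94 to -0.62) and -1.32 (-2.06 to -0.58). It was at 3.87 and 10.1 CPM in other T cells and 1.82 and 2.59 CPM in the macrophage gate. Klri2 also had the largest share of UMIs outside the lymphocyte and macrophage gates among the 9 genes, 29.6% (64 UMIs) in the untreated and 40.0% (100 UMIs) in the NAM library. These lay in 322 and 413 ungated cells, at 24.5 and 33.6 CPM.

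Klrb1c, the gene of the NK1.1 antigen of C57BL/6 mice, was, among the members other than Ncr1, the one that set NK cells apart from CD8 T cells most sharply. It was at 114 CPM (90.2 to 142) and 127 CPM (92.3 to 172) in NK cells, where 46 of 92 and 24 of 52 cells had a UMI. In CD8 T cells it had 0 UMIs in 106 untreated and 170 NAM cells, where a floor of 3 counts corresponds to 2.83% and 1.76% of cells with a UMI and sets no limit on cells that express the gene. Against the same floor of 3 UMIs per gate and library, it was at least 23.6-fold and 44.2-fold lower in CD8 T than in NK cells. Other T cells had 4 and 14 UMIs (3.87 and 9.43 CPM), 2 and 11 of them in cells that also had Ncr1 and no Foxp3, and the macrophage gate had 2 and 5 UMIs.

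Ncr1 (NKp46, an activating receptor of NK cells) was at 600 and 640 CPM in NK cells, by the gate's construction. A gate that used no member (no Cd3d, Cd3e or Cd3g, 2 or more of Nkg7, Gzma, Prf1, Txk, Eomes and Xcl1, low-myeloid) held 70 and 37 cells and had Ncr1 UMIs in 58 and 29 of them (82.9% and 78.4%), at 667 and 639 CPM. In CD8 T cells Ncr1 UMIs came from 2 of 106 untreated cells (13 UMIs, up to 12 in a cell) and 1 of 170 NAM cells (3 UMIs). The macrophage gate had none by its definition.

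The number of different members in a cell set other T cells apart from NK and CD8 T cells. Of 8 members (Ncr1 left out), and after thinning to 3000 UMIs, NK cells held medians of 3.5 (untreated) and 4 (NAM), CD8 T cells 3 in both and other T cells 0 in both. Cells with 3 or more members made up 70.7% (60.2 to 79.7) and 71.2% (56.9 to 82.9) of NK cells, 65.1% (55.2 to 74.1) and 68.8% (61.3 to 75.7) of CD8 T cells, and 15 of 136 (6.31 to 17.5%) and 25 of 174 (9.52 to 20.5%) other T cells. NK and CD8 T cells overlapped in these shares, and other T cells lay below both. In low-myeloid cells the shares were 78.5% (67.8 to 86.9) and 92.5% (79.6 to 98.4) of NK cells, and 69.4% (59.3 to 78.3) and 75.8% (68.2 to 82.4) of CD8 T cells, so that these gates stood further apart in the NAM library, with intervals that still overlapped. Low-myeloid other T cells held a median of 1 member in both libraries, with none in 40.0% and 38.6% and 3 or more in 13.7% and 21.9%, below both other gates.

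**Figure D2:**
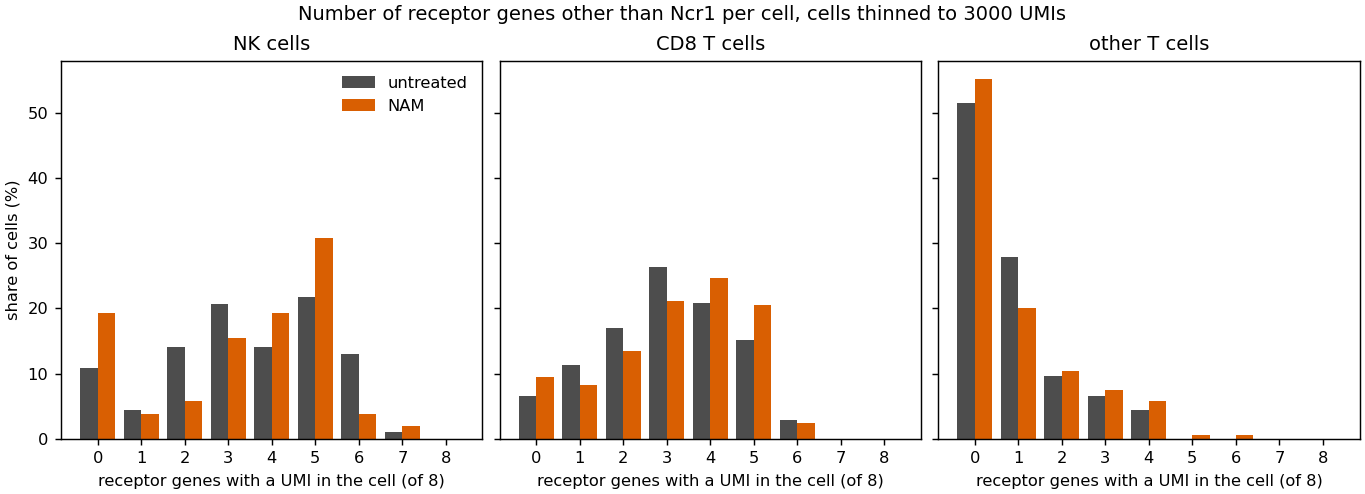
Share of cells (percent) against the number of receptor genes other than Ncr1 with a UMI in the cell, for NK, CD8 T and other T cells, untreated (grey) and NAM (orange), each cell thinned to 3000 UMIs. NK and CD8 T cells peak at 3 to 5 genes, and 51.5% and 55.2% of other T cells have none.

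Known partners were read in the same cells after thinning. Klrd1 had a UMI in 83.1% (49 of 59) of untreated and 85.2% (23 of 27) of NAM NK cells that had Klrc1, and in 63.6% and 44.0% of those without Klrc1. Among low-myeloid NK cells the order turned in the untreated library (83.9% with and 87.0% without) and held in the NAM library (85.2% and 76.9%), with overlapping intervals in both, so that no difference was resolved in NK cells. In CD8 T cells these shares were 84.0% (63 of 75) and 90.1% (118 of 131) with Klrc1, and 51.6% and 41.0% without, and among low-myeloid cells 86.1% and 91.3% with, and 53.8% and 57.7% without. In other T cells they were 84.2% (16 of 19) and 72.0% (18 of 25) with Klrc1, and 12.8% and 14.8% without. Klrc1 and Klrc2 were also found together, as 56.0% and 64.9% of CD8 T cells with Klrc1 had Klrc2, against 16.1% and 12.8% of those without. The 98-base words that these paralogues share bear on that pair. Klre1 had a UMI in 63.6% (7 of 11) and 72.7% (8 of 11) of CD8 T cells with Klri2, and in 25.3% and 29.6% of those without. In NK cells Klre1 was found in 12 of 19 and 7 of 14 with Klri2, and in 28.8% and 42.1% of cells without. These intervals overlapped in both libraries for NK cells and in the untreated library for CD8 T cells. They also overlapped in low-myeloid NAM CD8 T cells, and in low-myeloid NAM NK cells the order turned (53.8% with and 59.3% without).

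The adaptors of NKG2D were read in cells with Klrk1, also after thinning. Tyrobp (DAP12, an adaptor with an activating motif) had a UMI in 98.4% and 96.9% of NK cells with Klrk1, and in 96.8% and 100% of those without it, with overlapping intervals. Its share of CD8 T cells with Klrk1 was 34.7% and 36.9%. Hcst (DAP10, the adaptor of NKG2D in T cells) had one in 75.4% and 68.8% of NK cells and 77.8% and 73.0% of CD8 T cells with Klrk1. Without Klrk1 Hcst was in 16 of 31 and 10 of 20 NK cells and in 73.5% and 49.2% of CD8 T cells, and the intervals with and without Klrk1 overlapped in NK cells of both libraries and in untreated CD8 T cells. Among low-myeloid cells they overlapped in NAM CD8 T cells too (66.5 to 83.5% and 43.2 to 73.0%), and in NAM NK cells the order turned (22 of 32 with and 8 of 8 without). Macrophages express Tyrobp at high levels, and CD8 T cells without Klrk1 had Tyrobp in 38.2% and 52.5%. In low-myeloid CD8 T cells Tyrobp was found in 32.9% and 34.6% of cells with Klrk1 and in 7 of 28 and 18 of 46 cells without it, with overlapping intervals.

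Across the 3 lymphocyte gates, the members as a group differed little between NAM and untreated. The 8 members other than Ncr1 summed to 1903 CPM (1803 to 2008) in untreated and 1814 CPM (1673 to 1964) in NAM NK cells, a log2 ratio of -0.07 (-0.21 to 0.07). All 9 members summed to 2286 CPM (2168 to 2408) and 2471 CPM (2376 to 2568) in CD8 T cells, a log2 ratio of 0.11 (0.02 to 0.21), and to 462 CPM (421 to 505) and 449 CPM (415 to 484) in other T cells, a log2 ratio of -0.04 (-0.21 to 0.13). In low-myeloid NK cells the ratio was 0.29, outside the interval of all NK-gate cells, and in other T cells it was 0.19 when every cell counted alike, so that neither near-0 ratio held under each choice. The ratio in CD8 T cells was 0.29 without cells above 2 times the median UMIs.

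A member was counted as past 1.5-fold where it had 20 or more UMIs over both libraries. In NK cells, where Ncr1 was left out as the gate's own gene, 0 of 8 members were higher and 1, Klrg1, was lower, against 10.6% of 5236 genes higher and 16.4% lower. CD8 T cells had 0 of 6 members higher and 0 lower, against 11.3% and 10.8% of 6544 genes. Among other T cells 1 of 7, Ncr1, was higher and 1, Klrg1, lower, against 8.92% and 12.4% of 7839 genes. Median log2 ratios of the counted members were -0.05, 0.02 and -0.04 in the 3 gates, beside -0.06, 0.03 and -0.02 over all genes counted. The medians were close to those of all genes in the full gates. Of 24 medians under other processing choices, 10 moved beyond the margin set by the interval of the summed members.

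**Figure D3:**
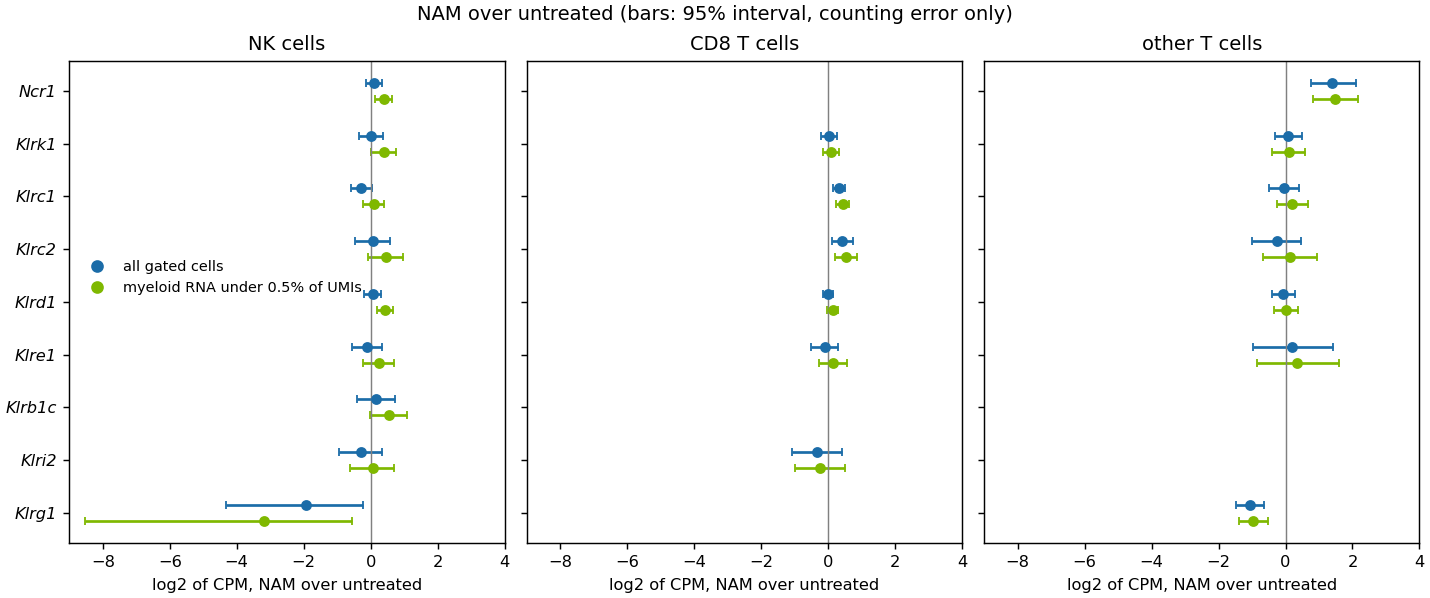
Log2 ratio of CPM, NAM over untreated, for each receptor gene with 20 or more UMIs in NK, CD8 T and other T cells, for all gated cells (blue) and for cells with myeloid RNA under 0.5% of UMIs (green). Bars are exact 95% intervals for counting error. Klrc1 (0.32) and Klrc2 (0.42) in CD8 T cells, Ncr1 (1.40) in other T cells and Klrg1 (-1.94 in NK and -1.05 in other T cells) have blue intervals that leave out 0.

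CD8 T cells of the NAM library had higher levels of Klrc1 and Klrc2, both within 1.5-fold in the full gate, where Klrd1, their partner, stood level. Klrc1 had 375 and 783 UMIs, which gave 602 and 753 CPM and a log2 ratio of 0.32 (0.14 to 0.50). Klrc2 had 119 and 266 UMIs, 191 and 256 CPM, a log2 ratio of 0.42 (0.10 to 0.75), and a UMI in 44.3% (34.7 to 54.3) and 52.9% (45.1 to 60.6) of cells after thinning, with overlapping intervals (51.9% and 67.1% before thinning). Klrd1 had 914 and 915 CPM, a log2 ratio of 0.00 (-0.15 to 0.15), and the difference between these genes was not tested. Klrk1 (0.03, -0.21 to 0.27), Klre1 (-0.10, -0.51 to 0.31) and Klri2 (-0.34, -1.08 to 0.43) had intervals that held 0. The ratio of Klrc1 ranged from 0.27 to 0.43 and that of Klrc2 from 0.37 to 0.64 over 9 other ways of processing the cells. Low-myeloid CD8 T cells gave 0.43 (0.25 to 0.62) for Klrc1 and 0.54 (0.21 to 0.87) for Klrc2. In the same cells Klrd1 was at 0.13 (-0.02 to 0.29).

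In NK cells no member other than Klrg1 had an interval that left out 0 in the full gate. Klrk1 was at 0.00 (-0.36 to 0.36), Klrd1 at 0.06 (-0.19 to 0.31), Klrc2 at 0.06 (-0.46 to 0.56), Klrb1c at 0.16 (-0.40 to 0.72), Klre1 at -0.10 (-0.57 to 0.35), Klri2 at -0.28 (-0.94 to 0.35) and Klrc1 at -0.28 (-0.59 to 0.03). Each was higher among low-myeloid cells. Low-myeloid NK cells gave 0.43 (0.18 to 0.68) for Klrd1, 0.39 (0.02 to 0.75) for Klrk1 and 0.09 (-0.22 to 0.40) for Klrc1. In the gate that used no member, Klrk1 stood at 337 and 335 CPM and Klrd1 at 612 and 626 CPM, with overlapping intervals. Klrb1c in that gate was at 134 and 206 CPM (0.61, 0.03 to 1.19), past 1.5-fold, and Klrg1 had 20 UMIs and 1 UMI. Klrc2 in it was at 183 and 130 CPM (-0.50, -1.16 to 0.12), with the sign turned against the full gate and an interval that held 0. The ratio of Klrc1 was -0.64, past 1.5-fold, without the 5 cells of each library with the most Klrc1 UMIs. That takes 5 of 68 untreated and 5 of 30 NAM cells with Klrc1 and so moves the ratio by construction.

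Klrg1, an inhibitory receptor for cadherins, was past 1.5-fold lower in the NAM library in NK cells and in other T cells, the lymphocyte gates where it had 20 or more UMIs. In other T cells it had 117 UMIs in 29 of 136 untreated and 81 UMIs in 26 of 174 NAM cells, which gave 113 CPM (93.7 to 136) and 54.6 CPM (43.4 to 67.8), a log2 ratio of -1.05 (-1.48 to -0.63). The share of cells with a UMI, after thinning, was 18.4% (25 of 136) and 13.2% (23 of 174), against 0.132% and 0.0811% in the macrophage gate. The ratio shrank to -0.48 when every cell counted alike, to -0.40 after thinning and to -0.26 when cells were also gated on thinned counts, each outside the interval and short of 1.5-fold. Markers of regulatory T cells summed to 1562 and 1168 CPM in other T cells, and T cell markers to 3007 and 2398 CPM. Their part in the Klrg1 ratio was not tested. In NK cells Klrg1 had 24 UMIs in 11 of 92 cells and 3 UMIs in 2 of 52 cells, a log2 ratio of -1.94 (-4.31 to -0.22). The shares of NK cells with a UMI, before thinning, 12.0% (6.12 to 20.4) and 3.85% (0.47 to 13.2), overlapped. In CD8 T cells both libraries had 5 UMIs.

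Klrg1 in other T cells lay mainly in cells with Foxp3, the transcription factor of regulatory T cells. Other T cells were split, after the data had been seen, into those with a Foxp3 UMI (41 and 39 cells), those with Ncr1 and no Foxp3 (9 and 16) and those with neither (86 and 119). Cells with Foxp3 held 108 and 55 Klrg1 UMIs, 63.5% and 53.9% of those of the whole library, at 417 CPM (342 to 504) and 209 CPM (157 to 272). Klrg1 was found in 24 of 41 (58.5%) and 20 of 39 (51.3%) of them. Cells with neither had 9 and 23 Klrg1 UMIs, at 12.6 and 20.5 CPM, a log2 ratio of 0.71 (-0.46 to 2.00) in the other direction with an interval that held 0. Cells with Foxp3 had 1 and 4 UMIs of Klrd1 and 1 and 4 of Klrk1. Of other T cells with Klrg1, 0 of 25 untreated and 1 of 23 NAM cells had Klrd1 (thinned), against 27.9% and 25.8% of those without Klrg1.

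Ncr1 was higher in other T cells of the NAM library. It had 25 UMIs in 9 of 136 untreated cells and 95 UMIs in 18 of 174 NAM cells, 24.2 and 64.0 CPM, a log2 ratio of 1.40 (0.75 to 2.1). A single NAM cell held 29 of the 95 UMIs. The shares of cells with a UMI, before thinning, were 6.62% (3.07 to 12.2) and 10.3% (6.25 to 15.9) and overlapped. The 9 and 16 cells with Ncr1 and no Foxp3 also carried other members, with Klrd1 at 678 and 677 CPM, Klrc1 at 382 and 369 CPM and Klrk1 at 313 and 359 CPM. Klrc2 was at 191 and 82.1 CPM, Klre1 at 104 and 71.8 CPM, Klri2 at 69.5 and 30.8 CPM and Klrb1c at 34.8 and 113 CPM, on 2 to 11 UMIs a library. Klrg1 in them had 0 and 3 UMIs. Klre1 and Klri2 read below their NK cell levels in both libraries, but on these few UMIs the order was not resolved. Since these cells were chosen for Ncr1, their Ncr1 level is not a result.

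**Figure D4:**
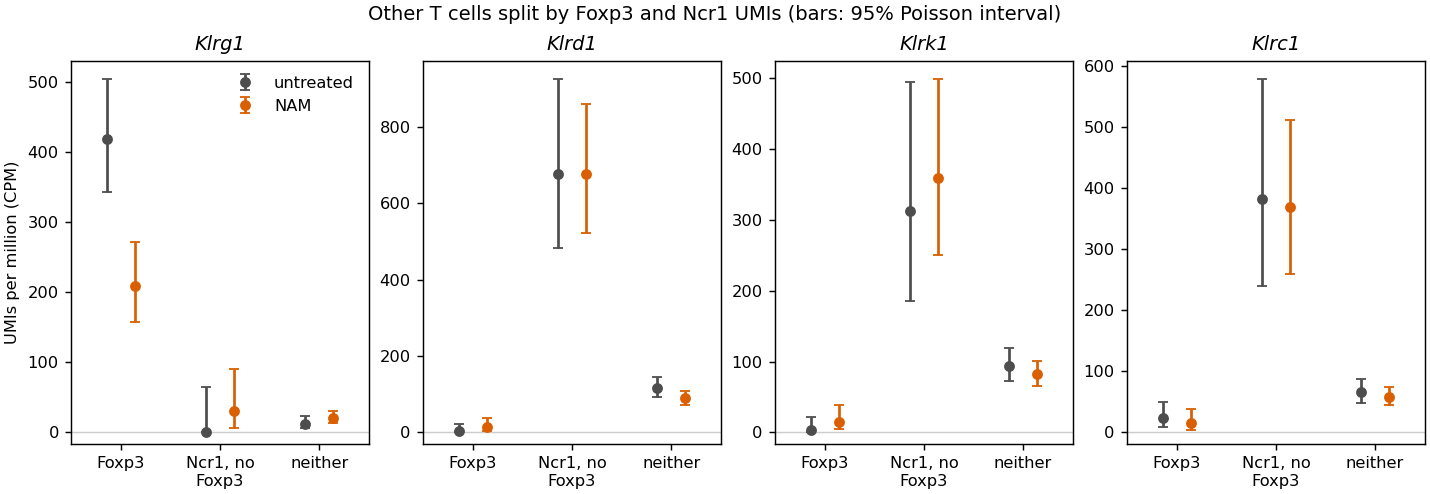
Level (CPM) of Klrg1, Klrd1, Klrk1 and Klrc1 in other T cells with a Foxp3 UMI, with Ncr1 and no Foxp3, and with neither, untreated (grey) and NAM (orange), with exact 95% Poisson intervals. Klrg1 is highest with Foxp3 (417 and 209 CPM), and Klrd1, Klrk1 and Klrc1 are highest with Ncr1.

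Klrk1 had the highest level of the 9 genes in the macrophage gate, compared as UMIs of 3′ ends. In the macrophage gate it had 844 UMIs in 473 of 2266 untreated cells and 1225 UMIs in 715 of 2467 NAM cells, which gave 34.9 CPM (32.6 to 37.3) and 46.7 CPM (44.1 to 49.4), a log2 ratio of 0.42 (0.29 to 0.55). This was 53.5% and 58.0% of all Klrk1 UMIs of the libraries. After thinning, 8.52% and 13.1% of macrophage-gate cells had a UMI. Klrk1 had 11.6 and 12.0 UMIs for each UMI of Klrd1 in this gate, against 0.51 and 0.49 in NK cells and 0.40 and 0.41 in CD8 T cells. In the 1806 and 1861 cells with no UMI of Cd3d, Cd3g, Nkg7, Klrd1, Gzma, Gzmb or Thy1, Klrk1 was at 33.2 and 46.9 CPM, a log2 ratio of 0.50 (0.35 to 0.65). Of the 5 members with 20 or more UMIs in the macrophage gate, 1, Klrc1 (21 and 42 UMIs), was past 1.5-fold higher and 0 lower, against 2.97% and 6.42% of 12170 genes.

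Within the macrophage gate, Klrk1 was higher in cells with Ly6c2, a marker of monocyte-derived cells, than in cells without it. The levels were 62.1 against 30.0 CPM (untreated) and 92.4 against 39.5 CPM (NAM). It was also higher in cells with Cxcl9, an interferon-induced chemokine, at 57.9 against 20.8 CPM and 64.3 against 27.2 CPM. Cells with and without Mki67, a proliferation marker, had overlapping intervals (33.3 against 35.4 CPM and 41.9 against 47.7 CPM). Vcam1, an adhesion molecule, marked cells with more Klrk1 (42.3 against 28.9 CPM and 53.4 against 42.2 CPM), and Mrc1, the mannose receptor, cells with less (32.8 against 40.8 CPM and 44.6 against 50.6 CPM, the latter with overlapping intervals). The NAM library was the higher in each of these sets, with intervals of the libraries that overlapped in cells with Cxcl9, with Mki67 and without Mrc1. Cells with Cxcl9 made up 822 of 2266 and 1239 of 2467 cells of the gate.

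**Figure D5:**
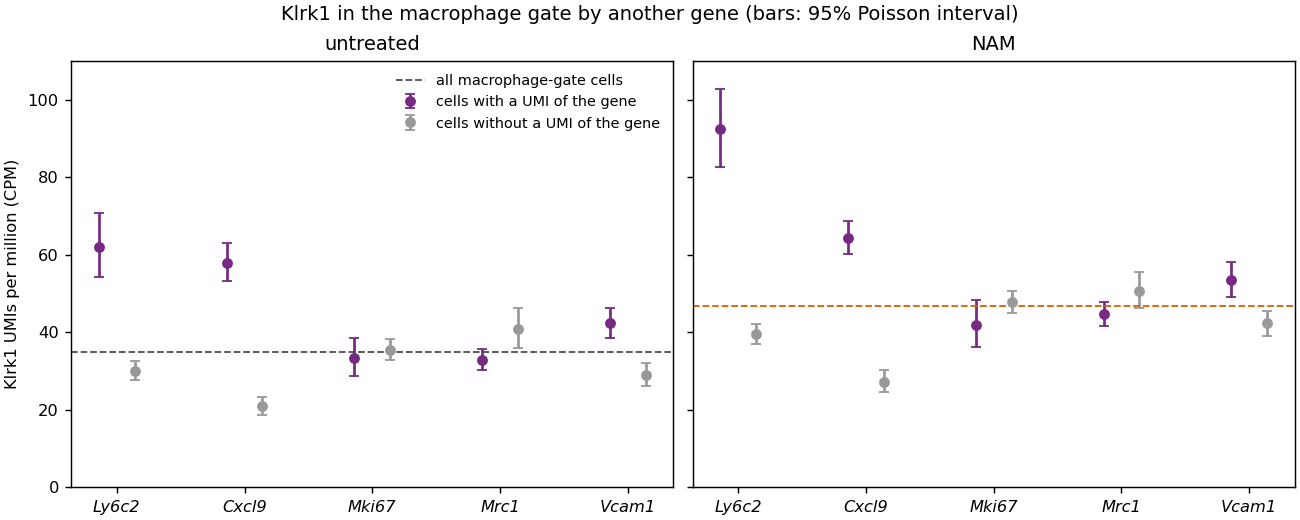
Klrk1 level (CPM) in macrophage-gate cells with (purple) and without (grey) a UMI of Ly6c2, Cxcl9, Mki67, Mrc1 or Vcam1, in the untreated and the NAM library, with exact 95% Poisson intervals. The dashed line is the level over the whole gate (34.9 and 46.7 CPM). Cells with Ly6c2, Cxcl9 or Vcam1 lie above it in both libraries.

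Other genes of these pathways were read from gene lists. Of 8 further lectin-like NK receptors with 20 or more UMIs in NK cells, 3 were higher past 1.5-fold (Klra2, Klrb1a and Klrb1b) and 0 lower, beside 10.6% of all genes higher and 16.4% lower. Klra2 (73.4 and 101 CPM) and Klrb1b (7.44 and 14.4 CPM) were also found in the macrophage gate. Klra3, a Ly49 receptor, was at 146 and 205 CPM (log2 0.48, 0.02 to 0.94). Of 15 adaptors and kinases in NK cells, 4 were higher and 1 lower. Fcer1g, the adaptor that Ncr1 uses, was at 1758 and 2739 CPM (0.64, 0.51 to 0.76) and Tyrobp at 1962 and 2455 CPM (0.32, 0.20 to 0.45). Both are also macrophage genes, and for these 4 genes the part of the macrophage RNA of the NK gate in these values was not tested. Of 9 other activating or inhibitory receptors 3 were higher and 2 lower, among them the Fc receptor Fcgr3 at 230 and 477 CPM, also a macrophage gene. Of 11 effector genes in NK cells 5 were higher, such as the chemokine Ccl4 (254 and 614 CPM, 1.27). Ccl4 was also at 1541 and 1492 CPM in the macrophage gate, and the part of macrophage RNA in its NK cell value was not tested. The 2 lower ones were the granzyme Gzmc (3180 and 990 CPM, -1.68, -1.85 to -1.52) and the chemokine Xcl1 (1507 and 892 CPM, -0.76, -0.95 to -0.57). Of 7 transcription factors 0 were past 1.5-fold, and of 3 inhibitory phosphatases 1 was higher.

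Adaptors and kinases of CD8 T cells were higher in 1 and lower in 2 of 15, beside 11.3% of all genes higher and 10.8% lower. The higher one was Fcer1g, also a macrophage gene, at 604 and 928 CPM (0.62, 0.45 to 0.80). The lower ones were Syk and Fyn, the latter a Src family kinase at 180 and 92.4 CPM (-0.96, -1.37 to -0.56). Hcst (553 and 382 CPM, -0.53, -0.74 to -0.32) and Sh2d2a, a T cell adaptor (238 and 339 CPM, 0.51, 0.23 to 0.80), were within 1.5-fold. Of 12 effector genes 3 were higher, such as Xcl1 at 222 and 690 CPM (1.64, 1.37 to 1.91) and Gzmb at 403 and 694 CPM (0.78, 0.57 to 1.00), and 3 lower, such as Ccl3, also at 480 and 351 CPM in the macrophage gate, at 793 and 175 CPM (-2.18, -2.43 to -1.93) and Gzma at 188 and 44.3 CPM (-2.09, -2.61 to -1.58). Eomes, a factor of effector and memory differentiation, was at 91.6 and 37.5 CPM (-1.29, -1.91 to -0.67) and was the 1 of 7 transcription factors that was lower. Of 4 further lectin-like receptors 1 was higher and 2 lower, of 12 other receptors 1 was higher and 1 lower, and of 3 inhibitory phosphatases 0 were past 1.5-fold.

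In other T cells 3 of 11 effector genes were higher and 2 lower, beside 8.92% of all genes higher and 12.4% lower. Gzma, a granzyme, had 4 and 96 UMIs (3.87 and 64.7 CPM). Of 17 adaptors and kinases 0 were higher and 3 lower, with Fyn at 78.4 and 39.1 CPM. Further lectin-like receptors were higher in 3 and lower in 0 of 8, other receptors in 3 and 1 of 11, phosphatases in 0 and 1 of 3, and transcription factors in 0 and 0 of 7. Ligands of the members were read in macrophages, where 0 of 8 were past 1.5-fold in either direction, beside 2.97% of all genes higher and 6.42% lower. H2-T23, the Qa-1 ligand of CD94 with NKG2A or NKG2C, was at 141 and 131 CPM (-0.11, -0.18 to -0.04). In NK cells the same gene was at 144 and 91.9 CPM (-0.64, -1.27 to -0.05) and was the 1 of 2 ligands counted there that was lower. Of all genes in NK cells 16.4% were lower. CD8 T cells had 0 of 2 ligands past 1.5-fold, beside 11.3% of all genes higher and 10.8% lower. Other T cells had 1 of 3, Raet1e, higher, beside 8.92% of all genes.

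Genes whose levels went with the mean of the 8 members across the 4 gates of both libraries were ranked by Pearson's r of log2(CPM + 10) over these 8 values, among 5242 genes with 100 or more UMIs in the lymphocyte gates. The first 5 were Serpinb6b (0.993), an inhibitor of serine proteases, Prdx6 (0.993), a peroxiredoxin, Tbx21 (0.991), the transcription factor T-bet of NK and type 1 T cells, Bcl2 (0.990), a survival factor, and Dapk2 (0.989), a kinase. The ribosomal symbols Rps18-ps3 (0.988) and Rpl19 (0.986) followed at ranks 7 and 10, so a high r was not limited to genes of NK or T cells. Tbx21 was at 48.3 and 65.2 CPM in NK cells, 43.4 and 46.2 in CD8 T cells, 12.6 and 14.2 in other T cells and 0.124 and 0.495 in macrophages. Among the members themselves r ran from 0.976 for Klrd1 to 0.247 for Klrg1, against a mean that contains each of them except Ncr1. The points share gates and libraries, so r is a description.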

How the data were processed

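The authors had made 10x Genomics 3′ libraries, aligned them with Cell Ranger to mm10 (annotation version not given in the sources used here) and deposited UMI counts per gene and cell, 1 matrix per library. Every deposited cell was kept. Counts were summed over the cells of a gate and divided by the UMIs of the gate. Intervals were exact Poisson for levels, exact binomial for ratios (conditional) and Clopper-Pearson for shares. With 1 library a group there was no test between groups. Shares described as thinned used 3000 UMIs a cell (seed 1), and no cell was shallower. Other shares and numbers of cells with a UMI used all UMIs. Doublets were neither called nor removed, since the methods state no removal.

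All 9 members were named in every gate, in the text or in the plot of levels. From each gene list and gate, up to 4 genes with 50 or more UMIs whose interval left out 0 were eligible to be named, furthest from 0 first. Klra2, Klrb1a and Klrb1b in NK cells, Syk in CD8 T cells and Raet1e in other T cells were named outside this rule, after their values were seen. Members, lists and gates were chosen with earlier results of these data known. Scripts used Python 3.11.15, NumPy 2.4.6, SciPy 1.17.1 and matplotlib 3.10.9 and were tested on simulated data. Alternatives covered scaling, cell weights, thinning, gates, myeloid RNA, cells of high UMIs and the minimum UMIs. Of these, 3 were added after seeing the data, namely leaving out the 5 cells with the most UMIs of a member, macrophages without lymphocyte UMIs and co-detection in low-myeloid cells. The result for 1 further gene is not reported here.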

Additional observations from a re-analysis of the deposited data

Results flagged for a closer look

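The ratio of Ncr1 had opposite signs in the T cell gates, which did not hold under every choice. Its log2 ratio, NAM over untreated, was 1.40 in other T cells and -2.85 (-5.31 to -0.99) in CD8 T cells, where it rested on 13 UMIs in 2 untreated cells and 3 UMIs in 1 NAM cell. In CD8 T cells the ratio turned to 1.03 without cells above 2 times the median UMIs and to 0.90 in a stricter gate. The difference between the gates was not tested. Klrk1 stood at 46.7 CPM in the macrophage gate of the NAM library and at 34.9 CPM in the untreated library, in cells outside the lymphocyte gates.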

How the results depend on the processing

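Each library was a single pool, so no library could be left out, and no spread between tumours was measured. No paired analysis was possible because each group held 1 library. Across the alternatives, 215 of 229 log2 ratios of single members stayed within the counting interval, 12 left it and 2, whose own interval left out 0, changed sign. These were both of Ncr1 in CD8 T cells, to 1.03 without cells above 2 times the median UMIs and to 0.90 in a stricter gate. Ratios whose interval held 0 changed sign too, such as Klrc1 in NK cells (0.09) and Klre1 in CD8 T cells (0.15), both with myeloid RNA under 0.5%. Counting intervals were left by 10 of 24 gate shares, 16 of 52 shares of cells with a UMI and 6 of 18 NK cell levels. Of 24 median ratios over members, 10 moved beyond the margin set by the interval of the summed members. The summed ratio left its interval in 8 of 24 alternatives. The summed members gave 0.29 in NK cells with myeloid RNA under 0.5%. In CD8 T cells they gave 0.22 as a mean over cells, 0.23 with myeloid RNA under 0.5% and 0.29 without cells above 2 times the median UMIs. In other T cells they gave 0.19 as a mean over cells, 0.22 after thinning, 0.31 when also gated on thinned counts and 0.18 in the stricter gate. Members past 1.5-fold numbered 0 lower in NK cells at a minimum of 50 UMIs, 2 lower in CD8 T cells and 3 higher in other T cells at a minimum of 10 UMIs. Ncr1 in other T cells was at 2.35 without the 5 cells of each library with the most Ncr1 UMIs, which takes 5 of 9 untreated and 5 of 18 NAM cells with Ncr1 and so moves the ratio by construction. Other causes were not tested. Low counts limited, among others, Klrg1 in NK cells (24 and 3 UMIs) and in CD8 T cells (5 and 5 UMIs), and Ncr1 in CD8 T cells (13 and 3 UMIs).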
